A study of Mus musculus with 6 samples.

Results

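The 8 genes described here, *Gpr37l1*, *Lrrc4b*, *Grin3b*, *Bex1*, *S100b*, *Sox10*, *Mbp* and *Th*, are known as genes of nerve cells and of the glia that ensheath them. The genes were followed in the hearts of mice fed a normal diet (ND) or a high fat diet (HFD). They were taken by name, as every probe other than a control whose gene name was that of a member, which gave 12 probes among 55681 and 8 genes among 36163 gene names. The choice was made with the difference between the diets in view, because *Gpr37l1* was among the transcripts with the largest decrease. The differences between the diets are therefore given for these 8 genes as a description, with an error and with no test, and the test was kept for other glial and nerve genes.

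The hearts came from 6 male C57BL/6 mice, which received their diet from 4 weeks of age for 4 months. The 3 ND mice ate standard chow, and the diet of the 3 HFD mice drew 60% of its kcal from fat. Total RNA of each heart was hybridised in 1 colour (Cy3) to 1 Agilent array, so each array stands for 1 heart, and p-values measure the spread between these hearts. The labels name no transgene or mutation for these mice and do not say which chambers of the heart a sample held.

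The heart is reached by sympathetic axons, by parasympathetic axons and by the small ganglia on the atria. The axons run inside Schwann cells, of which most in the heart wrap bundles of thin axons without myelin, and satellite glia surround the cell bodies in the ganglia. The cell bodies of the sympathetic neurons lie outside the heart, so a heart sample holds their axons and only that part of their RNA which is carried along them. In RNA from whole tissue, fewer cells of a type and less RNA per cell cannot be told apart. Which cells of the heart the RNA of a gene came from is not known either.

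The level of a probe is its log2 intensity minus the log2 of the 75th percentile of its array, so a level of 0 lies at that percentile. Levels were compared between hearts. Across probes they were used only to choose the probe of a gene and the genes to name, and to sum or average gene lists. The genes that made up most of 1 sum are also named. Between 27416 and 29503 probes per array (49.2% to 53.0%) were well above background, and no spot was saturated. Arrays of the same diet correlated at 0.983 to 0.989 (Pearson's r), and arrays of different diets at 0.983 to 0.988. The 8 cardiomyocyte markers were all well above background on all 6 arrays. The summed level of 6 atrial muscle markers, on a linear scale, ran from 198 to 981 in ND hearts and from 56.2 to 1149 in HFD hearts, a wide spread within each diet.

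*Gpr37l1* encodes an orphan G protein-coupled receptor of astrocytes and satellite glia, for which prosaposin has been proposed as a ligand. It was read by a single probe, designed on NM_134438 and placed on the minus strand of chromosome 1 (chr1:137057746-137057805 of mm9). That sequence is shown because every *Gpr37l1* value rests on it.

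Gpr37l1 probe A_52_P141687: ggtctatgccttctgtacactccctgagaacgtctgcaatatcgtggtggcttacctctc

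In the order of replicates 1 to 3, the ND hearts had *Gpr37l1* levels of −2.87, −2.76 and −2.09, and the HFD hearts had levels of −3.73, −4.08 and −4.28. All 3 HFD hearts were below all 3 ND hearts. The mean level was −2.58 ± 0.42 (SD, n = 3) with ND and −4.03 ± 0.28 with HFD. Their log2 difference of −1.45 (SE 0.25) left 36.5% of the ND level. Ranked from the most lower in HFD, the probe was number 36 of the 27590 probes tested. The spots were dim, with intensities of 66.8 to 111.7 in ND and 26.7 to 38.9 in HFD, although each was well above background. With another background correction (normexp with an offset of 50), the log2 difference of *Gpr37l1* shrank to −0.68. Without the heart ND 3, which had the highest level, it was −1.21 and the probe was number 164 from the most lower.

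*Lrrc4b* encodes a postsynaptic adhesion protein that binds receptor phosphatases of the LAR family. Its 2 probes (NM_198250) lie on the plus strand of chromosome 7 (mm9), A_55_P1953503 at chr7:51718632-51718691 and A_55_P2125982 at chr7:51718626-51718685. They share 54 of their bases, so they are close to 1 measurement made on separate spots, and after centring they differed by at most 0.03 in any heart. The level on A_55_P1953503 was 3.20, 3.43 and 3.23 in the ND hearts and 1.85, 1.94 and 2.20 in the HFD hearts. The groups did not overlap, and the spread within each diet was small, 0.12 in ND and 0.18 in HFD (SD, n = 3). The log2 difference was −1.29 (SE 0.12) on either probe, with 40.9% and 40.8% of the ND level left.

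*Grin3b* encodes a glycine-binding subunit of NMDA receptors. Its probe A_51_P397934 (NM_130455, chr10:79439842-79439901 of mm9) was at −1.21, −1.35 and −1.78 in the ND hearts and at −2.37, −2.43 and −3.05 in the HFD hearts. The diets did not overlap. The log2 difference was −1.17 (SE 0.23), or 44.4% of the ND level, and −0.79 with the normexp correction.

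*Bex1* encodes a small adaptor protein first found in brain that takes part in neurotrophin receptor signalling. It was read by 2 probes with no shared base, both on NM_009052 and on chromosome X of mm9, A_55_P2031021 at chrX:132674650-132674709 and A_65_P16753 at chrX:132674125-132674184. These places are those the files give, and they fall on the plus strand with only 100 bases between A_55_P2031021 and the *Bex4* probe A_55_P1967683 (chrX:132674810-132674869). In RefSeq (GRCm38.p6), *Bex1* and *Bex4* are separate genes with 73.5 kb between them. The Bex genes resemble each other, so the name *Bex1* rests here on the accession of the probes, and which copy they read is uncertain. The *Bex4* probe itself differed by 0.26 (SE 0.41). One *Bex1* probe is shown so that it can be matched to a Bex transcript, with its first ATG, at base 20, in capitals.

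Bex1 probe A_65_P16753: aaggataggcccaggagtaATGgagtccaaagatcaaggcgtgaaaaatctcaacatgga

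The level on A_55_P2031021 was −0.32, 0.31 and 0.20 in the ND hearts and −1.57, −0.76 and −0.93 in the HFD hearts. The level on A_65_P16753 was −1.89, −1.19 and −1.38 in the ND hearts and −3.08, −2.18 and −2.44 in the HFD hearts. ND 1 and HFD 1 were the lowest of their diets on both probes, and the centred values of the 2 probes differed by at most 0.10 in any heart. The log2 difference was −1.15 (SE 0.26) on the first probe and −1.08 (SE 0.28) on the second, with 45.0% and 47.4% of the ND level left.

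The best known glial members did not share this pattern. *S100b*, a calcium-binding protein of Schwann cells and astrocytes, was read by A_51_P468260 (NM_009115, chr10:75723783-75723842 of mm9). It was at −0.44, −0.16 and −0.02 in the ND hearts and at 0.23, −0.89 and 0.28 in the HFD hearts. HFD 1 and HFD 3 were above every ND heart and HFD 2 was below every ND heart, which gave a log2 difference of 0.08 (SE 0.33). The sign depended on single hearts, since the difference was 0.46 without HFD 2 and negative without ND 1 (−0.04), HFD 1 (−0.10) or HFD 3 (−0.12).

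*Sox10*, the transcription factor that specifies the glial cells of the neural crest, was read by A_55_P2094729 (NM_011437, chr15:78985518-78985577 of mm9, minus strand). It was at −1.51, −1.36 and −0.96 in the ND hearts and at −1.26, −1.62 and −1.11 in the HFD hearts. The diets overlapped, and the log2 difference was −0.05 (SE 0.19), with 0.09 without HFD 2, 0.11 without ND 3 and −0.17 without ND 1.

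*Mbp* encodes myelin basic protein, which compacts the myelin sheath, and had 3 probes on chromosome 18. Probe A_52_P604195 (NM_001025245) was at −1.77, −1.68 and −1.0 in the ND hearts and at −0.36, −2.39 and −1.16 in the HFD hearts, a log2 difference of 0.18 (SE 0.52) with HFD 1 the highest and HFD 2 the lowest of the 6. It was 0.72 without HFD 2 and −0.29 without HFD 1. Probe A_52_P329451 (NM_010777) is a 60-base probe whose genomic span is 2305 bases, so it crosses an intron. It was at −4.31, −4.02 and −3.91 in the ND hearts and at −3.78, −3.80 and −4.51 in the HFD hearts, a log2 difference of 0.05 (SE 0.23) that was 0.29 without HFD 3 and −0.07 without HFD 1. These 2 probes did not move together, since their centred values differed by up to 1.25 in a heart. The third probe, A_55_P1992160 (NM_010777), was well above background in 0 ND hearts and 1 HFD heart and was not tested. Its levels were −6.70, −6.29 and −5.58 in the ND hearts and −3.93, −4.80 and −5.43 in the HFD hearts, and because no ND value was well above background, no fold is given for them.

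*Th* encodes tyrosine hydroxylase, the rate-limiting enzyme of catecholamine synthesis and a marker of sympathetic neurons. Its probe A_55_P2275249 (NM_009377, chr7:150078703-150078762 of mm9, minus strand) was at 0.14, 0.18 and 0.14 in the ND hearts and at −0.19, 0.07 and −0.18 in the HFD hearts. The diets did not overlap, but the log2 difference of −0.25 (SE 0.09) left 83.9% of the ND level, and the probe was number 2731 from the most lower of the 27590.

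Of the 12 member probes, 11 passed the filter on dim probes, all 11 well above background on all 6 arrays. The diets did not overlap on 7, with HFD lower, overlapped on 4, and did not overlap on the dim *Mbp* probe, with HFD higher. Among all 27590 probes tested, 11.1% did not overlap with HFD lower and 7.92% with HFD higher. Nothing is read from this contrast for the members, which were chosen by it.

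**Figure D1:**
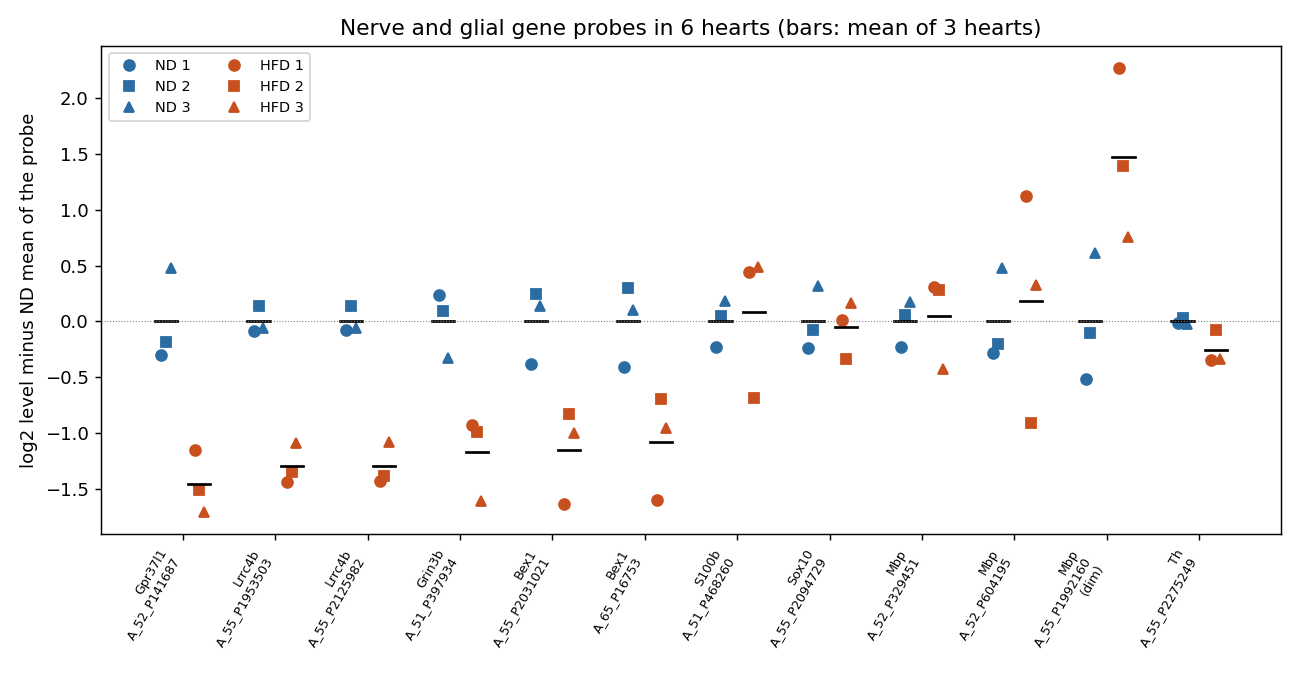
Log2 level of each of the 12 member probes in each heart, minus the mean of the probe over the 3 ND hearts (blue ND, orange HFD, marker shape for the heart, black bars for group means). The HFD points of *Gpr37l1*, *Lrrc4b*, *Grin3b* and *Bex1* all lie below their ND points, those of *S100b*, *Sox10* and 2 *Mbp* probes overlap them, and *Th* differs by −0.25.

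Whether other glial genes followed *Gpr37l1* was asked with lists from which the 8 members were left out. Across all probes, limma with Benjamini-Hochberg adjustment called 0 lower (0%) and 4 higher in HFD (0.0145%), none of them in these lists. At an unadjusted p below 0.05, 1830 probes were lower (6.63%) and 1445 higher (5.24%). With 1 probe for each gene, 20571 genes were tested, of which 53.2% had a lower mean in HFD, with a median log2 difference of −0.01.

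Of 20 genes of Schwann and satellite glia other than myelin genes, 19 were on the array and 16 were tested. Their median log2 difference was 0.10, and 7 of the 16 had a lower mean in HFD. At an unadjusted p below 0.05, 2 were lower and 1 was higher, and none passed the adjustment. *Cadm4*, an adhesion protein of Schwann cells at the axon, had a log2 difference of −0.23 (SE 0.09, adjusted p = 0.404). *Sema3b*, a secreted guidance protein, had a log2 difference of −0.23 (SE 0.08, adjusted p = 0.364).

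*Fabp7*, a fatty acid-binding protein of glial precursors and satellite glia, went the other way. It was at −3.45, −3.04 and −2.45 in the ND hearts and at −1.71, −2.41 and −1.85 in the HFD hearts. The diets did not overlap, although ND 3 and HFD 2 nearly met, and the log2 difference was 0.99 (SE 0.30, adjusted p = 0.317). *Apod* differed by −0.09 (SE 0.14) and *Gpm6b* by 0.03 (SE 0.07). *Erbb3*, the neuregulin receptor of Schwann cells, *Gfap* and *Sox2* were well above background on no array.

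The 16 genes of myelin and of myelinating Schwann cells were all on the array and 9 were tested. Of these, 3 had a lower mean in HFD, the median log2 difference was 0.13, and none had an unadjusted p below 0.05 in either direction. The brightest were *Mal* at −0.22 (SE 0.12), *Pmp22* at 0.05 (SE 0.08) and *Egr2* at 2.38 (SE 1.1, adjusted p = 0.471). *Egr2*, a transcription factor of myelination that is also an immediate early gene, was at −1.14, −0.33 and −2.40 in the ND hearts and at 2.84, 1.65 and −1.24 in the HFD hearts, so HFD 3 lay inside the ND range. *Cldn19*, *Gjc3* and *Ugt8a* were well above background on no array.

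Over both glia lists, 25 genes were tested, 10 had a lower mean in HFD and the median log2 difference was 0.13. The gene with the lowest estimate, *Foxd3*, differed by −0.33 (SE 0.37). It was well above background on 3 ND and 2 HFD arrays, so it passed the filter only through ND. The summed level of the non-myelin list was 29.3 to 30.0 in ND hearts and 26 to 29.9 in HFD hearts, and HFD 2 was the lowest. That of the myelin list was 21.1 to 24.6 in ND hearts and 21.0 to 30.4 in HFD hearts, with HFD 2 at 24.5.

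Neuronal genes were described in the same way. Of 13 sympathetic and catecholamine genes 8 were tested, with a median log2 difference of 0.04 and none at an unadjusted p below 0.05. *Dbh*, which makes noradrenaline from dopamine, differed by 0.46 (SE 0.27), *Hand2*, a transcription factor of sympathetic neurons and of the heart itself, by 0.31 (SE 0.29) and *Gch1*, which makes the cofactor of tyrosine hydroxylase, by 0.04 (SE 0.18). *Slc6a2*, the noradrenaline transporter, was well above background on no array. Of 5 cholinergic genes 3 were tested. *Slc18a3*, the vesicular acetylcholine transporter, differed by 0.30 (SE 0.11, adjusted p = 0.381), *Chat* by −0.01 (SE 0.19) and *Ache* by −0.10 (SE 0.47).

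Of 19 genes of axon and synapse structure 11 were tested, with a median log2 difference of 0.15, 2 lower and 2 higher at an unadjusted p below 0.05. The lower ones were *Stmn2*, a microtubule regulator of growing axons, at −0.35 (SE 0.10, adjusted p = 0.311), and *Elavl4*, a neuronal RNA-binding protein, at −0.33 (SE 0.11, adjusted p = 0.347). The higher ones were *Chgb*, a granin of secretory vesicles, at 0.44 (SE 0.17, adjusted p = 0.399), and *Gap43*, a growth cone protein, at 0.71 (SE 0.28, adjusted p = 0.408). The brightest were *Snap25* at 0.20 (SE 0.08), *Syp* at −0.07 (SE 0.08) and *Sncg* at 0.04 (SE 0.10). The neurofilament genes *Nefl*, *Nefm* and *Nefh* were well above background on no array.

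Over the 5 nerve and glia lists, 47 genes were tested. Their median log2 difference was 0.05, 19 had a lower mean in HFD, and 4 were lower and 4 higher at an unadjusted p below 0.05 (8.51% each, beside 7.01% and 4.97% of all 20571 genes). The 4 higher include *Gap43*, which passed the filter only through HFD. The lowest was *Pnmt*, the enzyme that makes adrenaline, at −0.41 (SE 0.25, adjusted p = 0.585). The 95% interval of the difference lay above −1 for 44 of the 47 genes, the exceptions being *Foxd3*, *Pnmt* and *Ache*. Of these, *Foxd3* passed the filter only through ND. These intervals were computed with the main background correction only.

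**Figure D2:**
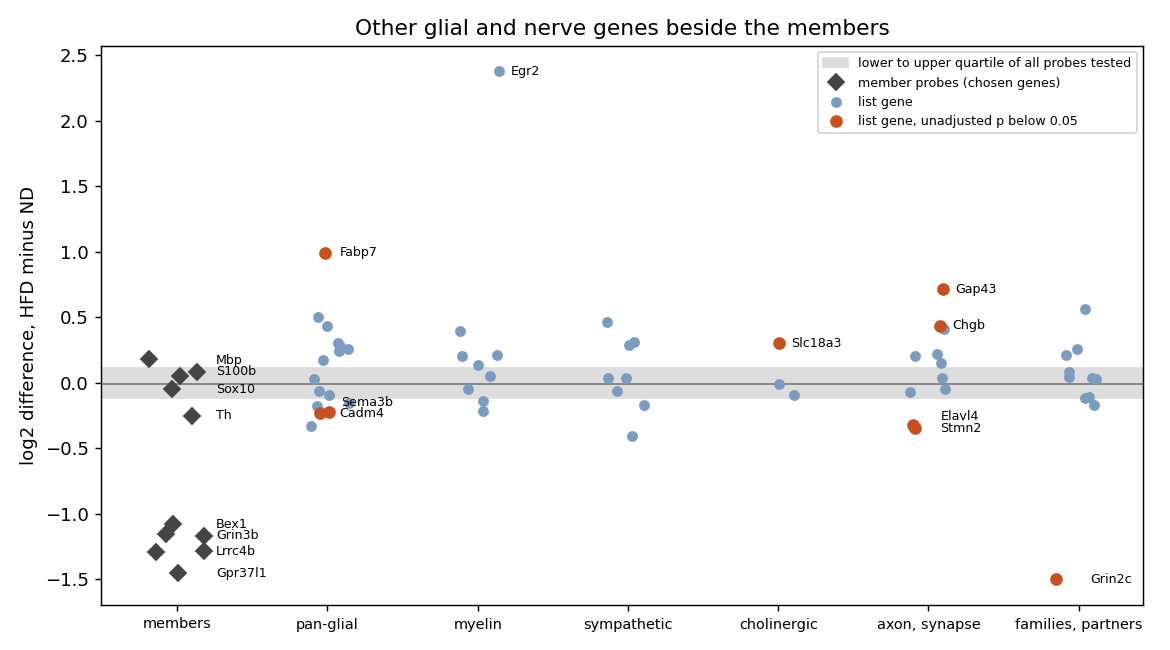
Log2 difference, HFD minus ND, of the 11 tested member probes and of the tested genes of 6 lists, 1 probe for each gene (points spread sideways at random within a list). The grey band runs from the lower to the upper quartile of all 27590 probes tested, −0.12 to 0.11, and orange points had an unadjusted limma p below 0.05. *Gpr37l1*, *Lrrc4b*, *Grin3b* and *Bex1* lie below the genes of the glial and neuronal lists, and *Grin2c* is the one family gene at their depth. The members were chosen with the difference between the diets in view, so nothing is read from this distance.

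The relatives and partners of the members were followed as a list of 22 genes, of which 11 were tested, with a median log2 difference of 0.03. *Grin2c*, which encodes another NMDA receptor subunit, was at −2.26, −1.57 and −1.28 in the ND hearts and at −2.99, −4.01 and −2.62 in the HFD hearts. No HFD heart reached the ND range, and the log2 difference was −1.50 (SE 0.42, adjusted p = 0.286). The obligatory subunit gene *Grin1* and *Grin2a* were well above background on no array. The same held for *Gpr37*, the closest relative of *Gpr37l1*, and for *Bex2* and *Bex6*. *Bex3*, listed on the array as *Ngfrap1*, differed by 0.03 (SE 0.27). *Psap*, which encodes prosaposin, differed by 0.04 (SE 0.10) and *Ptprs*, a phosphatase of the LAR family, by 0.03 (SE 0.07).

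Similarity to *Gpr37l1* was measured over the 6 hearts as the root mean square difference between probes, each centred on its own mean, for 14904 named genes with 1 probe each. Among the 10 closest were *Cth* (0.328), *Lin7b* (0.360), *Ifitm6* (0.363), *Gm12839* (0.370), *Acta1* (0.379), *Tnnt1* (0.379), *Aldh1l1* (0.383), *Cngb3* (0.384) and *Lrrc4b* (0.387). *Lrrc4b* was thus the closest member, ahead of *Grin3b* at rank 42 and *Bex1* at rank 61, and *Grin2c* stood at rank 71. The glial members were far away, with *Sox10* at rank 3732, *S100b* at rank 12218 and *Mbp* at rank 13822. *Cth*, the enzyme that makes cysteine and hydrogen sulfide from cystathionine, was at −1.10, −1.56 and −0.66 in the ND hearts and at −3.00, −3.01 and −2.87 in the HFD hearts. *Aldh1l1*, a folate enzyme used as a marker of astrocytes, was at 0.47, 0.53 and 1.0 in the ND hearts and at 0.16, −0.21 and −0.12 in the HFD hearts. Neither gene overlapped between the diets. The measure takes in the difference between the diets, by which *Gpr37l1* was chosen, so closeness by it is a description.

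**Figure D3:**
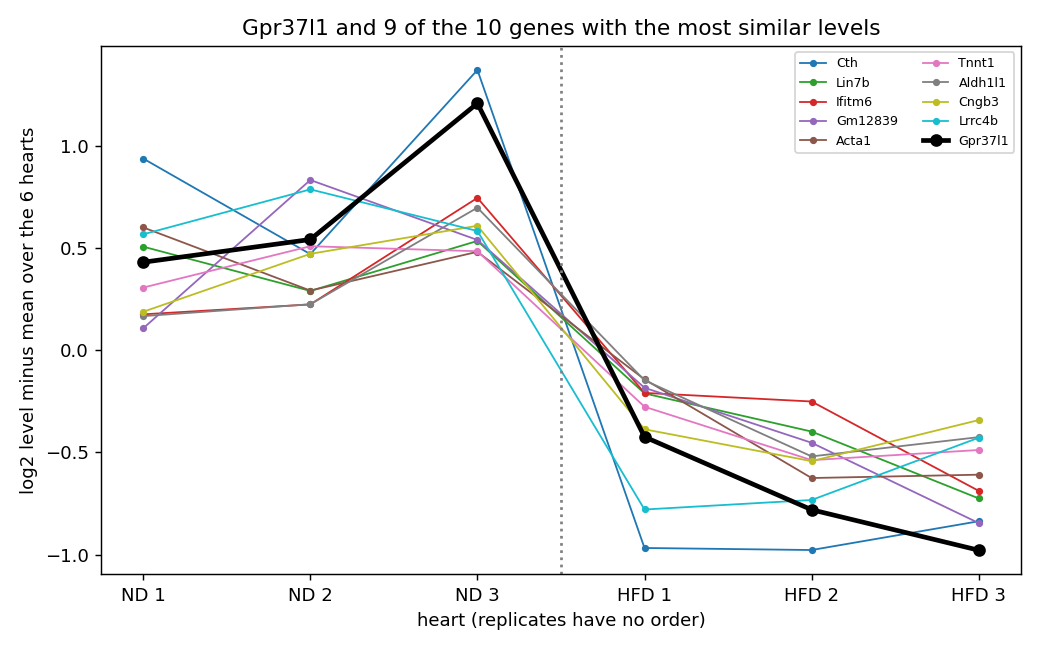
Log2 level in each heart minus the mean over the 6 hearts for *Gpr37l1* (black) and 9 of the 10 genes nearest to it by root mean square difference, with lines joining the hearts only to guide the eye. All 10 lie above 0 in the 3 ND hearts and below 0 in the 3 HFD hearts.

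*Acta1* and *Tnnt1* encode skeletal muscle forms of actin and troponin T. Of 9 skeletal muscle markers 4 were tested and well above background on all 6 arrays, 3 of them lower at an unadjusted p below 0.05, and *Mylpf* was well above background on no array. The summed level of this list was 198 to 218 in ND hearts and 137 to 144 in HFD hearts, without overlap. Most of this sum came from *Acta1* and *Ckm*, at mean levels of 6.15 and 6.56, beside 1.25 for *Tnni2* and −3.14 for *Tnnt3*. *Myh1*, *Myh2*, *Myh4* and *Actn3* were not tested, so the sum says little about other skeletal muscle genes. Nor does it measure the amount of skeletal muscle in a sample, because the cells that its RNA came from are not known. Of 10 erythroid genes 7 were tested and 5 were lower at an unadjusted p below 0.05, with summed levels of 1150 to 1344 in ND hearts and 827 to 1057 in HFD hearts. The part of skeletal muscle or blood RNA in the lower *Gpr37l1*, *Lrrc4b*, *Grin3b* and *Bex1* levels was not tested.

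Another quantity varied within each diet. The mean log2 level of the 4 tested atrial muscle genes (*Myl4*, *Myl7*, *Nppa* and *Sln*) was 4.71, 6.00 and 7.54 in the ND hearts and 7.88, 1.22 and 6.88 in the HFD hearts. HFD 2 thus had by far the lowest atrial level, and it was also the heart with the lowest *S100b*, *Sox10* and *Mbp* (A_52_P604195). This relation was noticed in these same values, so it is given as a description, with no test, for 5 measures over the 6 hearts.

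For *Mbp* on A_52_P604195 the correlation with the atrial level was 0.914 (Pearson's r) and 1 (Spearman's rho), and r was 0.945 over the 4 hearts left without HFD 2 and ND 1, those farthest from the median atrial level. For *S100b*, r was 0.946 and rho 0.829. For *Sox10*, r was 0.838 and rho 0.829. Without HFD 2 and ND 1, r was 0.573 for *S100b* and 0.491 for *Sox10*, so both relations rest on those hearts.

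The junction probe of *Mbp* (A_52_P329451) did not share this pattern, with r = −0.146 and rho = 0.257. The mean over the 25 glia list genes had r = 0.674 and rho = 0.886, and r = 0.704 without the same 2 hearts. The 2 glia lists differed in this. For the 16 non-myelin genes the mean centred level was −0.24, −0.03 and 0.09 (ND) and 0.25, −0.25 and 0.18 (HFD). For the 9 myelin genes it was −0.08, −0.17 and −0.25 (ND) and 0.59, 0.01 and −0.10 (HFD). Among the myelin genes, HFD 2 was above every ND heart, and the ND hearts fell as their atrial level rose. *Gpr37l1* was low in all 3 HFD hearts, from the lowest atrial level of the 6 (HFD 2) to the highest (HFD 1). This is a description, because *Gpr37l1* was chosen by its difference between the diets. The part of atrial tissue in that difference was not tested.

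With the atrial level as a covariate, an alternative chosen after seeing the data, the log2 difference of *Gpr37l1* was −1.41 (SE 0.25), that of *Lrrc4b* −1.28 on either probe, that of *Grin3b* −1.21 and that of *Bex1* −1.19 and −1.13. *Sox10* then differed by 0.01 (SE 0.12), *S100b* by 0.21 (SE 0.09) and *Mbp* on A_52_P604195 by 0.39 (SE 0.17). The members were chosen with the difference between the diets in view, so these values are a description. They do not test the part of atrial tissue. In the same fit 8 of the 25 glia list genes had a lower estimate in HFD and the median was 0.17. At an unadjusted p below 0.05, 2 were lower and 5 higher, and none passed the adjustment. Without the covariate these numbers were 2 and 1 of the 25. Among all 27590 probes in the fit with the covariate, counted by probe and not by gene, 2382 were lower and 1796 higher at the same limit. Without the covariate those were 1830 and 1445.

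**Figure D4:**
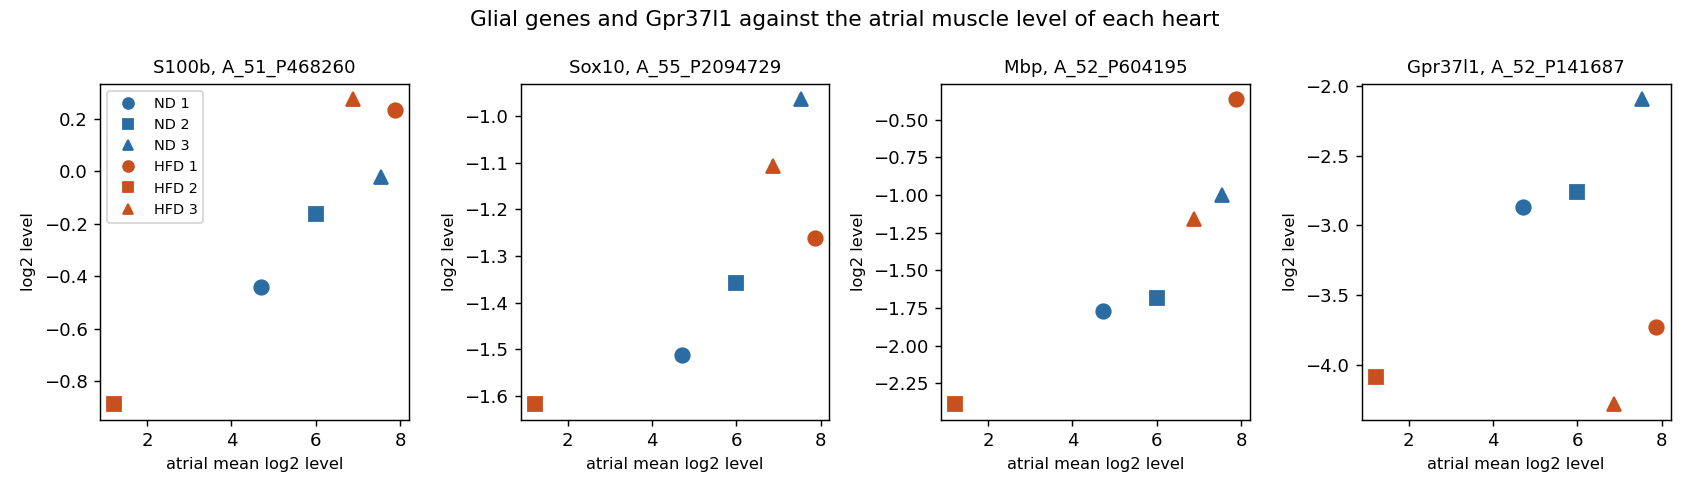
Log2 level of *S100b*, *Sox10*, *Mbp* (A_52_P604195) and *Gpr37l1* in each heart against the mean log2 level of 4 atrial muscle genes in the same heart (blue ND, orange HFD, marker shape for the heart). HFD 2, at an atrial level of 1.22, is lowest for the first 3 genes, while *Gpr37l1* is low in all 3 HFD hearts at atrial levels from 1.22 to 7.88.

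The 250 bases before the start of each member were taken from RefSeq (GRCm38.p6, a different build from that of the probes), where 6 of 7 genes looked up had an entry. *Sox10* had none, and *Mbp* was not looked up. The 5 short motifs searched on both strands, none of them part of another, were CACGTG (E-box), TGACGTCA (cAMP response element), ACAAAG (SOX factors), CAGCACC (part of the RE1 element of REST) and AGGTCA (ROR receptors). Among 32851 mouse promoters of the same length they stood in 6.02%, 1.55%, 16.5%, 5.73% and 14%. No match was found before *Gpr37l1*, *Lrrc4b*, *Grin3b*, *Bex1* or *S100b*, which says only that these letters are not in this window. *Th* had the cAMP response element, 45 bases before its start. The promoters of *Gpr37l1* (chr1:135167682-135167931, minus strand) and *Th* (chr7:142899996-142900245, minus strand) are given 5′ to 3′, the first because the glial comparison turns on this gene and the second for its match, which is in capitals.

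Gpr37l1 promoter: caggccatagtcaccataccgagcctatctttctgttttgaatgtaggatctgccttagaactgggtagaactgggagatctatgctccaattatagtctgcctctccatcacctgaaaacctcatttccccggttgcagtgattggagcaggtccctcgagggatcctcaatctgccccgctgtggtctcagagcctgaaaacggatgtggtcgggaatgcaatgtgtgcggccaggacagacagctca

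Th promoter: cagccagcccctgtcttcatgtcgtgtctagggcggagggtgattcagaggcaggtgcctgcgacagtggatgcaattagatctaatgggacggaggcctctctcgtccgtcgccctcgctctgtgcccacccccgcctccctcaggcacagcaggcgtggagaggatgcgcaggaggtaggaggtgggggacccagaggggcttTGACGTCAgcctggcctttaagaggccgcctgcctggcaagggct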

How the data were processed

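RNA from 3 ND and 3 HFD mouse hearts was measured on 6 Agilent arrays. The authors' deposited intensity values came from Agilent Feature Extraction 10.7 (10.7.1.1 in the file headers), with background subtracted within each array and no normalization between arrays. The authors also deposited a log2 table, whose making is not given in the sources used here. Each of its columns followed its own array (Spearman's rho 1, at most 0.954 with another) and lay within 0.00430, at the median, of a quantile normalization. Probe positions are on mm9, and gene names and accessions are those of the array design.

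The members and gene lists were chosen with earlier results of these data known. Control spots and the 127 to 190 outlier spots per array were left out, spots of a probe were averaged, and the log2 75th percentile of each array was subtracted. A probe was tested if it was well above background on all 3 arrays of either diet and had values from 2 or more arrays of each. The HFD and ND hearts were compared by lmFit and eBayes of limma 3.58.1 in R 4.3.3, two-sided, with Benjamini-Hochberg adjustment over 27590 probes. A list gene was represented by its brightest tested probe. Named are all member probes, list genes at an unadjusted p below 0.05, the 3 brightest tested genes of each nerve, glia or family list and the 10 genes nearest to *Gpr37l1*. Genes named beyond this rule, among them *Pnmt*, *Foxd3* and genes well above background on no array, were chosen after their values were seen.

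Alternatives were normexp background correction, quantile normalization, the authors' table, no filter, a filter on all 6 arrays, outlier spots kept, an intensity trend with robust variances, the methods' t-test, the mean over the probes of a gene, a replicate block, each heart left out and, after seeing the data, the atrial level as a covariate. Tested on simulated data (27551 probes), the limma comparison of HFD with ND called 73 of 100 probes changed by 1 on the log2 scale and 95 of 100 changed by 2, with 6 unchanged probes called. These rates belong to the simulated data and need not hold for the hearts, because the adjustment depends on how many probes differ. In the hearts, *Cth* had a log2 difference of −1.85 and was not called (limma, adjusted p = 0.0887). A gene that did not pass the adjustment may therefore still differ between the diets. The number of arrays limits the precision. Other software comprised jsonlite 2.0.0, statmod 1.5.0, the R package data.table (version 1.17.8), Python 3.11.15 and matplotlib 3.10.9. The place of probes within exons was not analysed here, and the separate results of some list genes and of 1 of the 10 nearest genes are not reported here.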

Additional observations from a re-analysis of the deposited data

How the results depend on the processing

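The number of probes past the adjustment was 4 as reported, 40 with normexp, 2 with quantile normalization, 2 with the authors' table, 0 with no filter, 81 with an intensity trend and robust variances, 8 with the methods' t-test, 1 with the atrial covariate and 0 to 5 with 1 heart left out (0 without ND 1, HFD 2 or HFD 3). Probes lower at an unadjusted p below 0.05 numbered 1149 to 2050 with a heart left out, against 1830 (1149 without ND 2, 1164 without ND 1), and those higher 1018 to 1737. No nerve or glia list gene passed the adjustment under any alternative.

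At an unadjusted p below 0.05 the glia genes lower in HFD numbered 2 as reported, 1 with no filter and 0 to 2 with a heart left out (0 without ND 1, ND 2, HFD 1 or HFD 3). The glia genes higher numbered 1 as reported, 2 with no filter, 0 with the methods' t-test, 5 with the atrial covariate and 1 to 4 with a heart left out (2 without ND 3, 4 without HFD 2, 3 without HFD 3). The neuronal genes lower numbered 2 as reported, 1 with the intensity trend, 3 with no filter and 1 to 2 with a heart left out (1 without ND 1, ND 2 or HFD 3). The neuronal genes higher numbered 3 as reported, 1 with normexp, no filter, the intensity trend or the atrial covariate, 0 with the methods' t-test and 0 to 3 with a heart left out (1 without ND 2, 0 without HFD 3). The cause of these changes was not tested. Over 17 alternatives the median log2 difference was 0.02 to 0.21 for the glia genes and −0.01 to 0.14 for the neuronal genes, negative for the latter without ND 3.

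The log2 difference of *Gpr37l1* was −0.68 with normexp and −1.61 to −1.21 with a heart left out. Member probes lower in HFD numbered 8 as reported and 7 to 11 with a heart left out. Replicates of the diets that shared a number had deviations correlated at −0.154, 0.147 and 0.190. Those with different numbers ran from −0.302 to 0.190. So few hearts cannot settle whether the numbers pair them. With the replicate block, 0 probes passed the adjustment and 3 glia genes were higher at an unadjusted p below 0.05. Without a heart, the log2 difference of *S100b* ran from −0.12 to 0.46, that of *Sox10* from −0.17 to 0.11 and those of *Mbp* from −0.29 to 0.72 (A_52_P604195) and from −0.07 to 0.29 (A_52_P329451).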
